A study of Mus musculus with 12 samples.

Results

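The genes described are the ligands, receptors and secreted modulators of Wnt signalling. They were chosen by symbol, with earlier results of these data known. The set takes in the Wnt ligands, the Frizzled receptors (Fzd) and the co-receptors Lrp5 and Lrp6. It also holds the R-spondins (Rspo1 to Rspo4) with their receptors Lgr4, Lgr5 and Lgr6. The rest are the secreted antagonists Dkk1 to Dkk4, Sfrp1 to Sfrp5, Frzb, Wif1 and Sost, and the feedback inhibitor Axin2. The deposited table of 53819 genes held 50 genes of this set. RNA was sequenced from 12 libraries of mouse stromal cell preparations, 3 in each of 4 groups, all from wild-type animals. Marrow of the hind limbs and pelvis was grown on plates coated with collagen I and passaged once, and the cells were then taken as they were (BM nonsorted) or sorted by flow cytometry as CD31-, CD45-, Ly6C-, F4/80-, CD51+ and Sca-1+ (BM sorted). Bone-associated cells were released from hind-limb bone fragments with collagenase I and taken as they were (BAC nondepleted) or after magnetic removal of cells carrying CD45, Ly6C or F4/80 (BAC depleted). The growth medium was alpha MEM without ascorbic acid, in hypoxia. The compartments therefore also differ in passage, in enzyme treatment and in the way the cells were purified, and these cannot be told apart from the compartment itself. No label says that the 3 libraries of a group came from separate animals, so a p-value here reflects only how these libraries vary, which may be technical except where stated below.

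Wnt proteins are secreted lipid-modified ligands that bind a Frizzled receptor, and in the canonical branch they also engage Lrp5 or Lrp6, which stabilises beta-catenin and turns on target genes through TCF/LEF factors. Secreted Frizzled-related proteins, Frzb and Wif1 bind the ligands outside the cell, while Dkk proteins and sclerostin (the product of Sost) act on the LRP co-receptors. R-spondins, bound by Lgr receptors, protect Frizzled and LRP proteins from removal at the cell surface, and Axin2 is a target gene whose product restrains the pathway. In bone, Wnt signalling is best known for promoting the formation of osteoblasts, and loss of its antagonist sclerostin gives high bone mass.

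The 250 bases before the annotated start are shown for 5 of the 8 genes whose levels differed between marrow and bone-associated cells in both comparisons described below, so that the text of those results can be read beside them. They are the 4 that were higher in marrow (Wnt4, Wnt9a, Wnt10b and Lgr6) and 1 of the 4 that were higher in bone-associated cells, the canonical target Axin2. Fzd8, Lrp6 and Wnt5b are not shown, because genes without a single listed promoter and those on 1 excluded chromosome were left out. The sequences are those of RefSeq on GRCm38.p6, written 5′ to 3′ on the strand of the gene. Capitals mark matches to the GC box GGGCGG or its reverse complement CCGCCC, and runs in capitals can hold overlapping matches.

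Wnt4, chr4:137277385-137277634, + strand: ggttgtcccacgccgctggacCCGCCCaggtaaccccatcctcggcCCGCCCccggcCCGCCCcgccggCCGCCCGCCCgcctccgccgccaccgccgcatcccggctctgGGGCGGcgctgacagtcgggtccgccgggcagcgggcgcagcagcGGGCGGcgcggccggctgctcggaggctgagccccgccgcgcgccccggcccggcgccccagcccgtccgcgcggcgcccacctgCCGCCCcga
Wnt9a, chr11:59306680-59306929, + strand: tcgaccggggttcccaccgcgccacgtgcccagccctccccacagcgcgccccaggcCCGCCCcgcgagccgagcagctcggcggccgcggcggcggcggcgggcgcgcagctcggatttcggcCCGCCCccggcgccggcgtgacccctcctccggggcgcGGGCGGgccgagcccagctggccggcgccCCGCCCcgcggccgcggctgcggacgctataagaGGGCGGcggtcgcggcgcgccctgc
Wnt10b, chr15:98778151-98778400, - strand: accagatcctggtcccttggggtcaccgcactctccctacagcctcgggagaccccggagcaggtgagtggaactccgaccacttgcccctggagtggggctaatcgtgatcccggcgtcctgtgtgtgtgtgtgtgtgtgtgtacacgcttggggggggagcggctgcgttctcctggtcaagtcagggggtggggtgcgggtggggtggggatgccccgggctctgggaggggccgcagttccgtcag
Lgr6, chr1:135105277-135105526, - strand: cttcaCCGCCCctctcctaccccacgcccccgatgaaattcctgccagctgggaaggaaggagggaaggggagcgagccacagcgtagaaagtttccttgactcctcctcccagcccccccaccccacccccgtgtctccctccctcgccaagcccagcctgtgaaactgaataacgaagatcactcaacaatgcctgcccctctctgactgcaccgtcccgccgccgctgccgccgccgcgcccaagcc
Axin2, chr11:108920099-108920348, + strand: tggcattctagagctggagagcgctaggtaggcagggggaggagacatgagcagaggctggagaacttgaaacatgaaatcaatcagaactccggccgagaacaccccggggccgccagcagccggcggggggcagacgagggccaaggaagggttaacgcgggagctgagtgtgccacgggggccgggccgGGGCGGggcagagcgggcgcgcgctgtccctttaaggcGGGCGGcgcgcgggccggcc

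The Wnt4 and Wnt9a windows held 8 and 5 GC box matches, those of Axin2 and Lgr6 held 2 and 1, and that of Wnt10b held 0. Their G and C content was 85.2% and 84.4% for Wnt4 and Wnt9a, 69.2% for Axin2, 66.8% for Wnt10b and 65.2% for Lgr6, against a median of 52.4% over all 32851 promoters of the table. The number of CG dinucleotides ranged from 14 in Wnt10b to 48 in Wnt9a, against a median of 6. None of the 5 windows held the TCF/LEF core CTTTGAT or the TATA box TATAAA on either strand. Over all promoters, windows of this length held the GC box in 32.7%, the TCF/LEF core in 3.21% and the TATA box in 12.4%. The table had 36 promoters for 33 of the 50 genes, of which 25 held the GC box, 2 the TCF/LEF core and 5 the TATA box. These matches describe the letters of the window and say nothing of factor binding in these cells. In the same annotation several ligand genes lie side by side with no other protein-coding gene between them: Wnt6 and Wnt10a on chromosome 1, Wnt3a and Wnt9a as well as Wnt9b and Wnt3 on chromosome 11, and Wnt10b and Wnt1 on chromosome 15.

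The libraries held 27937709 to 32164725 counts. The 12 macrophage markers summed to 5056 to 5710 CPM (counts scaled to a library of 1e+06) in BM nonsorted and 12983 to 14697 CPM in BAC nondepleted libraries, but to 11.1 to 44.3 CPM after sorting and 12.5 to 64.6 CPM after depletion, where Ptprc, Itgam, C1qa, C1qb and Tyrobp were at 0 in all 3 libraries. The BAC depleted libraries were the least alike, with correlations of log2 CPM over all genes tested as low as 0.940. Of that group, BAC depleted replicate 2 had the highest summed markers of marrow stroma (18683 CPM against 10596 and 4679), adipocytes (841 CPM), smooth muscle and pericytes (1230 CPM), endothelium (8.77 CPM) and macrophages (64.6 CPM), and the lowest of osteoblasts (4155 CPM). Its marrow stromal sum was mostly Cxcl12 (16535 CPM), while Lepr of the same list was highest in replicate 1 and Kitl in replicate 3. Its adipocyte sum was mostly Lpl (768 CPM), while Adipoq, Plin1 and Fabp4 were highest in replicate 1. Its macrophage sum was mostly Lyz2 (60.6 CPM), while Csf1r, Cd68 and Mrc1 were highest in replicate 3 and Fcer1g in replicate 1. Its endothelial sum was mostly Tek (5.02 CPM) and Vwf (2.93 CPM), while Cdh5, Kdr and Emcn were highest in replicate 1. Its smooth muscle and pericyte sum was mostly Acta2 (1033 CPM), while Cnn1 and Cspg4 were highest in replicate 3. Its osteoblast sum was mostly Col1a1 (3484 CPM), lowest in replicate 2 as was Runx2. Sp7 (46.4 CPM) and Alpl (55.2 CPM) of that list were highest there. Replicate 3 had the highest cartilage markers (29646 CPM against 10514 and 8585). BAC depleted replicate 1 had 43406 counts of Xist, against at most 16 elsewhere, and 0 counts of Uty, Kdm5d, Ddx3y and Eif2s3y, which lie on the Y chromosome. It therefore cannot be a technical repeat of the sample behind replicate 2 or 3. The 6 endothelial markers stayed under 11 CPM in sum in every library. In bulk RNA, fewer cells of a type and less RNA per cell cannot be told apart.

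Of the 50 genes, 36 passed the filter on low counts and were tested. The other 14 were Dkk1, Dkk4, Fzd10, Rspo4, Sfrp5, Sost, Wnt1, Wnt3, Wnt3a, Wnt7a, Wnt7b, Wnt8a, Wnt8b and Wnt9b. They were barely detected: Wnt7b had 20 counts over all 12 libraries together, Sfrp5 18, Fzd10 17, Wnt8a 10, Sost 6, Dkk1 5, Rspo4 4, Wnt8b 3 and Wnt7a 1. Dkk4, Wnt1, Wnt3, Wnt3a and Wnt9b had 0 counts, which allows a level of up to 0.00831 CPM over the pooled libraries (3 counts, counting error only). Sost, the osteocyte antagonist, had all 6 of its counts in BM nonsorted replicate 2. Wnt10b and Wnt9a were thus detected beside neighbours on the chromosome, Wnt1 and Wnt3a, that gave no count.

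**Figure D1:**
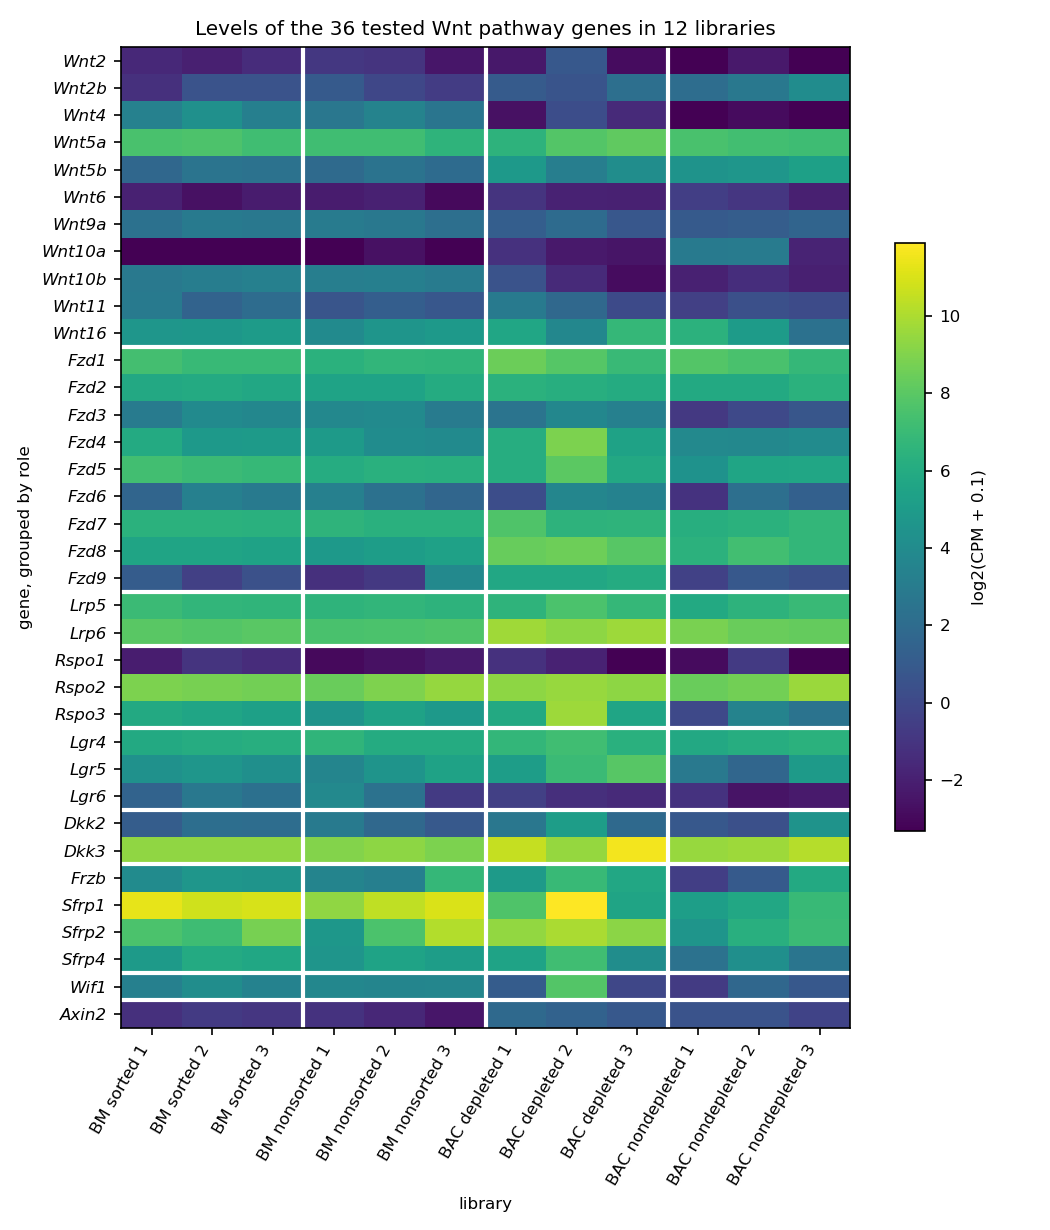
Level of the 36 tested genes (rows, by role) in the 12 libraries (columns, by group), as log2 of CPM plus 0.1. Lighter colours are higher levels. Wnt4 and Wnt10b are lighter in all 6 marrow columns than in the bone-associated ones, and Fzd9 is lighter in the BAC depleted columns than in the other libraries.

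The groups were compared in pairs with edgeR's quasi-likelihood test and Benjamini-Hochberg adjustment over 15698 genes, with a call where the adjusted p was under 0.05. Sorting of marrow cells called 0 of the 36 genes, against 6.23% of all genes tested (0.166% higher and 6.06% lower after sorting). An unadjusted p under 0.05 was reached by 1 gene, and the DESeq2 Wald test called 0. Magnetic depletion of bone-associated cells called 15 of 36 (41.7%, against 37.3% of all genes), of which 14 were higher after depletion (38.9%, against 17.4% of all genes) and 1 was lower (2.78%, against 19.9%). In the same comparison 12 of 12 macrophage markers fell, and 5 of 6 cartilage, 3 of 6 osteoblast, 3 of 6 marrow stromal and 3 of 5 adipocyte markers that were tested rose. Of the osteoblast markers 1 fell, Col1a1 (log2 fold change -1.69 ± 0.33, edgeR adjusted p 0.00281). In the other lists 1 of 3 osteocyte, 1 of 6 smooth muscle and pericyte and 0 of 5 tendon and fibroblast markers rose. Of 4 endothelial markers 1 rose and 1 fell. The part of these in the Wnt gene values was not tested. BM sorted against BAC depleted libraries called 13 (36.1%, against 47.4% of all genes), 4 higher (11.1%, against 22.9%) and 9 lower in marrow (25%, against 24.6%). BM nonsorted against BAC nondepleted libraries called 12 (33.3%, against 31.7%), 6 in each direction (16.7% each, against 14.9% higher and 16.8% lower). In all, 23 of the 36 genes were called in at least 1 of the comparisons and 13 in none. Apart from the direction on depletion, these shares lay near or below those of all genes. The depletion and compartment comparisons share libraries, so their counts are not independent of each other.

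The median log2 fold change of the 36 genes was 1.13 on depletion, where that of all genes tested was 0.05. It was 0.16 on sorting (all genes 0.00), -0.94 for BM sorted minus BAC depleted (all genes -0.02) and 0.33 for BM nonsorted minus BAC nondepleted (all genes -0.01). The libraries of the groups compared did not overlap for 8 of 36 genes on sorting (22.2%, against 28.7% of all genes) and for 11 on depletion (30.6%, against 46.3%), all of them higher after purification. They did not overlap for 19 in BM sorted against BAC depleted (52.8%, as for all genes at 52.8%) and for 19 in BM nonsorted against BAC nondepleted (52.8%, against 56.0%).

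**Figure D2:**
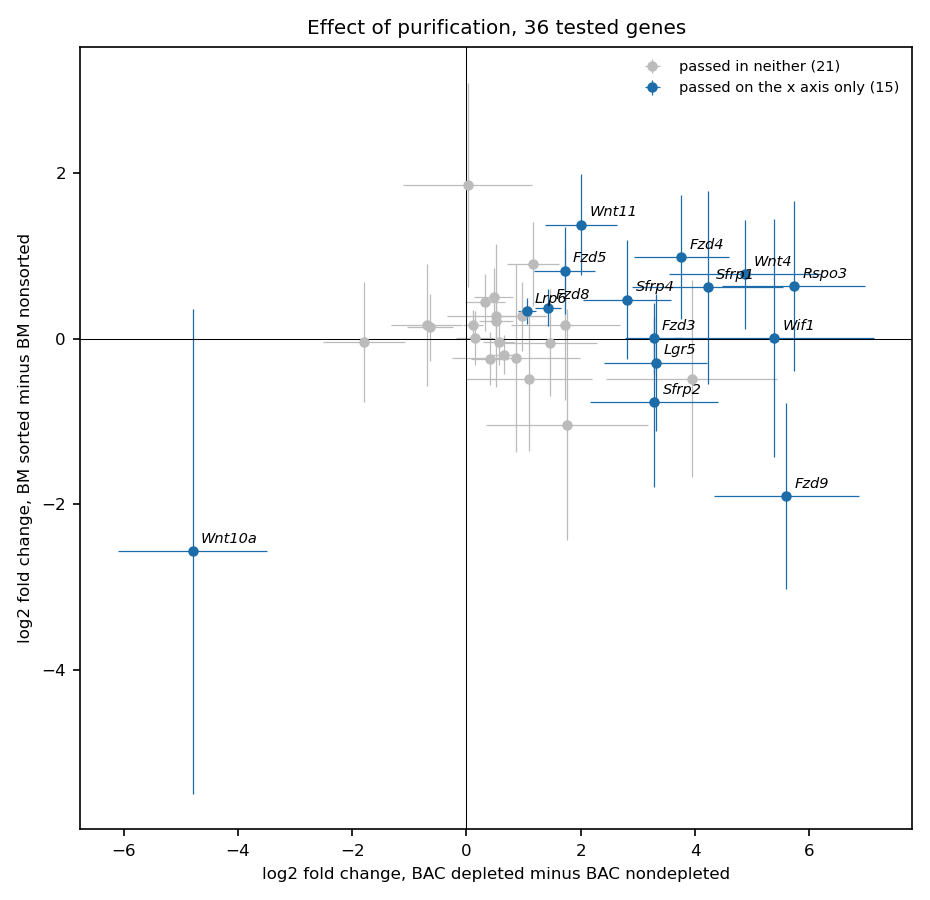
Log2 fold change (CPM ratio) on magnetic depletion of bone-associated cells (x axis) against that on sorting of marrow cells (y axis) for the 36 tested genes, with bars of 1 SE. The 15 genes called on depletion spread along the x axis, 14 of them to the right of 0, and none was called on sorting.

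Among the Wnt ligands, 11 of 19 genes were tested. On depletion 2 rose (Wnt4 and Wnt11, 18.2% against 17.4% of all genes) and 1 fell (Wnt10a, 9.09% against 19.9%). Wnt4, Wnt9a and Wnt10b were higher in marrow than in bone-associated cells in both comparisons and Wnt5b was lower in both. Wnt2b and Wnt10a were lower in marrow only in the comparison of the unpurified groups, though whether the 2 comparisons differ for them was tested without a call (adjusted p 0.312 and 0.932, edgeR's quasi-likelihood test). Of the tested ligands 27.3% were thus higher and 9.09% lower in marrow between the purified groups (all genes 22.9% and 24.6%). Between the unpurified groups 27.3% of these ligands were called in each direction (all genes 14.9% higher and 16.8% lower). None was called on sorting, where Wnt11 was the 1 gene of the 36 with an unadjusted p under 0.05 (log2 1.37 ± 0.61, adjusted p 0.322, edgeR's quasi-likelihood test) and the libraries of Wnt11 and Wnt5a did not overlap.

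Wnt4, a ligand that acts in kidney and gonad development and in bone, had 10.1, 20.1 and 9.25 CPM in the BM sorted libraries and 6.34, 10.9 and 5.82 CPM in the BM nonsorted ones. It had 0.0636, 1.10 and 0.250 CPM in the BAC depleted libraries, and 1 count in all in the BAC nondepleted ones. Every marrow library lay above every bone-associated one. The log2 fold change was 4.80 ± 0.79 (SE, n = 3 per group, adjusted p 0.000957 by edgeR's quasi-likelihood test) for BM sorted minus BAC depleted. Against the 1 count of the BAC nondepleted group, the CPM ratio of BM nonsorted was 637, with a 95% counting interval of 114 to 25184 (edgeR adjusted p 0.000879). The ratio of BAC depleted to BAC nondepleted was 38.9 (interval 6.59 to 1576, edgeR adjusted p 0.0167). Without BAC depleted replicate 2 the depletion call was lost (log2 fold change 3.24, edgeR adjusted p 0.0633), as it was without BAC nondepleted replicate 1 or 3, and the difference between the purified groups became 6.43.

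Wnt10b, a canonical ligand known to favour osteoblast over adipocyte formation, had 7.05, 8.72 and 9.77 CPM in the sorted and 9.10, 9.50 and 7.84 CPM in the nonsorted marrow libraries. It had 1.37, 0.248 and 0.0417 CPM in BAC depleted and 0.168, 0.291 and 0.152 CPM in BAC nondepleted libraries. The marrow and bone-associated libraries did not overlap. The log2 fold change in favour of marrow was 3.90 ± 0.75 between the purified groups (adjusted p 0.00218) and 5.41 ± 0.84 between the others (adjusted p 0.00175, edgeR's quasi-likelihood test, n = 3 per group). Without BAC depleted replicate 1, whose level was 5.52-fold above the next in its group, the former was 5.78. Wnt9a, a ligand known from joint formation, had 5.04, 7.58 and 6.59 CPM in sorted marrow, 7.81, 6.71 and 4.65 in nonsorted marrow, 2.19, 3.82 and 1.62 in BAC depleted and 1.91, 2.11 and 2.86 CPM in BAC nondepleted libraries. Its marrow libraries again all lay above the bone-associated ones, by log2 1.33 ± 0.34 (adjusted p 0.00873) and 1.48 ± 0.34 (adjusted p 0.00961, edgeR's quasi-likelihood test).

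Wnt5b, a ligand of the non-canonical branch that is known in growth plate cartilage, ran the other way. Its BM sorted libraries had 3.29, 5.6 and 5.24 CPM, and its BM nonsorted ones 3.66, 5.34 and 3.89 CPM. In bone-associated cells it reached 29.8, 9.05 and 17.7 CPM in the depleted and 22.2, 25.6 and 40.5 CPM in the nondepleted libraries. No marrow library reached the lowest bone-associated one. The log2 fold change of marrow minus bone-associated cells was -2.0 ± 0.42 (adjusted p 0.00325) between the purified groups and -2.77 ± 0.43 (adjusted p 0.00172, edgeR's quasi-likelihood test) between the others. Cartilage markers, whose summed level was 1105 to 3947 CPM in BM sorted and 8585 to 29646 CPM in BAC depleted libraries, differed between the purified groups in the same direction, but in the unpurified groups their ranges overlapped (2979 to 3975 CPM in BM nonsorted and 1317 to 4555 CPM in BAC nondepleted). The members of the list did not move alike: Comp and Acan were called lower in marrow in both comparisons (log2 -7.92 and -3.76 between the unpurified groups), whereas Matn3 was called higher in both (1.95 between the purified and 4.99 between the unpurified groups). Their part in the Wnt5b values was not tested.

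**Figure D3:**
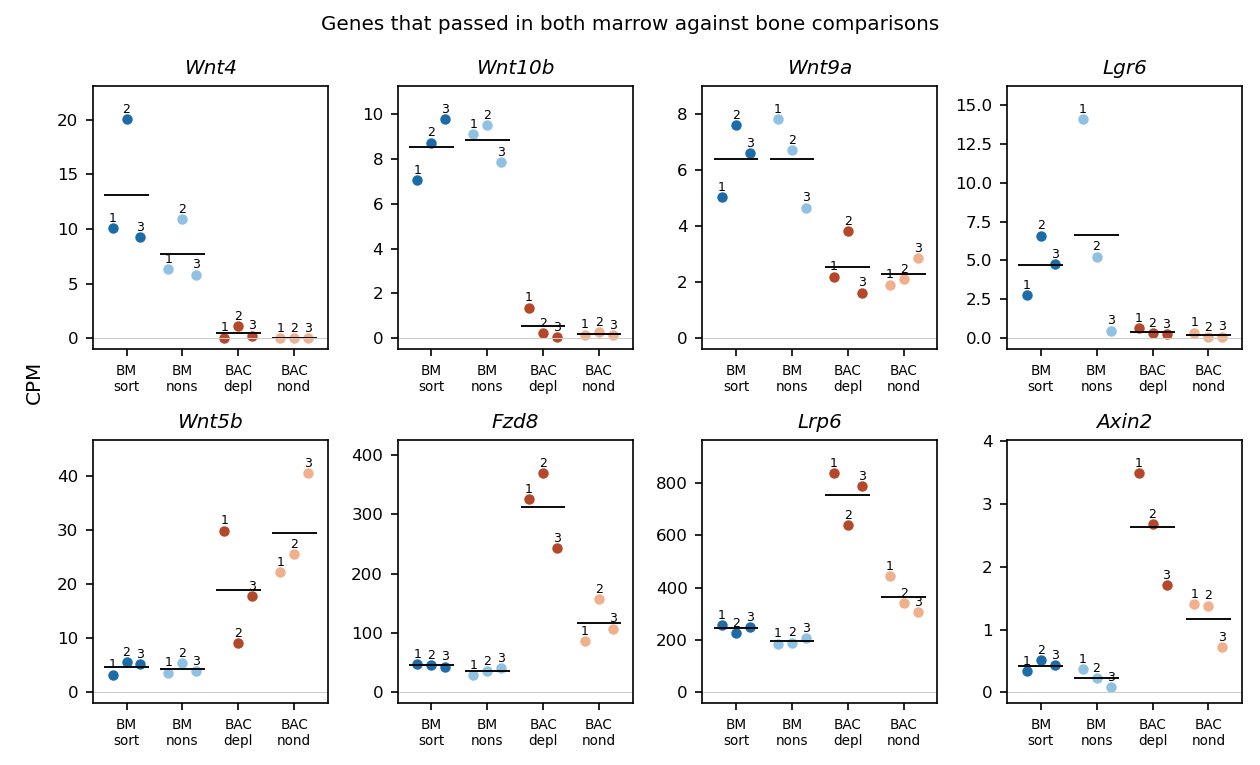
CPM (linear axes that differ between panels) of the 8 genes called in both comparisons of marrow with bone-associated cells. Each point is 1 library with its replicate number and each line is the mean of 3. In the upper row (Wnt4, Wnt10b, Wnt9a, Lgr6) the marrow groups are higher, and in the lower row (Wnt5b, Fzd8, Lrp6, Axin2) the bone-associated groups are.

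Wnt10a, a canonical ligand best known in skin and teeth, was carried by a small number of libraries. It had 0 counts in BM sorted and 2 counts in BM nonsorted libraries, 0.350, 0.106 and 0.0833 CPM in BAC depleted libraries and 7.48, 8.03 and 0.191 CPM in BAC nondepleted libraries. The high level was in BAC nondepleted replicates 1 and 2 and not in replicate 3, which lay within the range of the depleted group. It fell on depletion by 4.79 on the log2 scale (SE 1.30, adjusted p 0.0213, edgeR's quasi-likelihood test). That call was lost without either of the 2 high libraries and without BAC depleted replicate 2 or 3. In BAC nondepleted it was 264 times its BM nonsorted level (95% counting interval 72.6 to 2184, edgeR adjusted p 0.01). Wnt2b, a canonical ligand close to Wnt2, had 0.336, 1.41 and 1.41 CPM in sorted marrow, 1.85, 0.858 and 0.556 in nonsorted marrow, 1.94, 1.45 and 4.54 in BAC depleted and 4.16, 6.61 and 16.7 CPM in BAC nondepleted libraries. The unpurified groups did not overlap, with a log2 fold change of -3.07 ± 0.75 for marrow minus bone-associated cells (adjusted p 0.0132, edgeR's quasi-likelihood test), lost without BM nonsorted replicate 2 (adjusted p 0.0546 by the same test). Wnt11, a non-canonical ligand, stayed under 5 CPM in every group mean, at 3.85 ± 3.14 CPM in BAC depleted and 0.955 ± 0.288 CPM in BAC nondepleted libraries (SD, n = 3). Its rise of log2 2.01 ± 0.63 (edgeR adjusted p 0.03) came with overlapping libraries and was lost without BAC depleted replicate 1 (log2 1.20) or any BAC nondepleted library.

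The most abundant ligand was not called in any comparison. Per kilobase of exon, Wnt5a, the main ligand of the non-canonical branch, had 22.5 CPM per kb in sorted marrow, 16.7 in nonsorted marrow, 25.4 in BAC depleted and 20.3 in BAC nondepleted libraries, the highest mean of the 19 ligands in each group. Next came Wnt16, a ligand known for its effect on cortical bone, at 6.42, 5.30 and 13.5 CPM per kb in the first 3 of these groups, and Wnt5b at 11.1 CPM per kb in BAC nondepleted. Wnt5a ranged from 95.5 to 195 CPM over the marrow libraries and from 89.2 to 284 CPM over the bone-associated ones, so that these overlapped. Wnt16 was uneven within the bone-associated groups, with 51.8, 13.0 and 112 CPM after depletion and 85.4, 32.3 and 4.99 CPM before it. The order of Wnt16 and Wnt5b in bone-associated cells is therefore within the spread between libraries. Wnt2 (at most 1.7 CPM, 48 counts in BAC depleted replicate 2) and Wnt6 (at most 0.604 CPM) were low and were not called. Some alternative runs did call them, such as the DESeq2 Wald test for Wnt2 on depletion and the replicate block for Wnt6 between the unpurified groups.

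**Figure D4:**
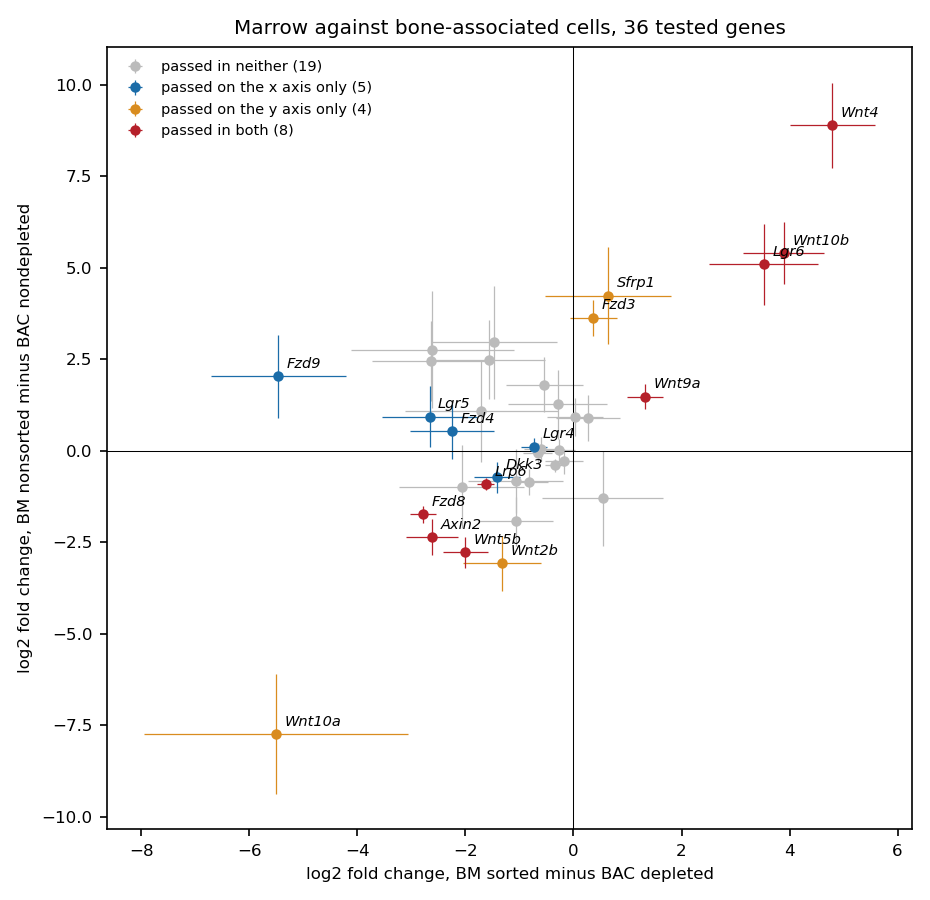
Log2 fold change of marrow minus bone-associated cells for the purified groups (x axis, BM sorted minus BAC depleted) and the unpurified groups (y axis, BM nonsorted minus BAC nondepleted), with bars of 1 SE, for the 36 tested genes. The comparisons share no library: 8 genes were called in both, 5 only on the x axis, 4 only on the y axis and 19 in neither.

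Of the 10 Frizzled receptor genes 9 were tested, and 5 of them (Fzd3, Fzd4, Fzd5, Fzd8 and Fzd9) rose after depletion while none fell (all genes 17.4% and 19.9%). In BM sorted against BAC depleted libraries 3 were lower in marrow (Fzd4, Fzd8 and Fzd9) and none was higher (all genes 24.6% and 22.9%). Between the unpurified groups Fzd3 was higher and Fzd8 lower in marrow (all genes 14.9% and 16.8%). Fzd3 and Fzd9 were also called in the test of the difference between the effect of sorting and that of depletion, which called 2 of the 36 genes (5.56%, against 8.06% of all genes), both with a negative difference (0 positive; all genes 5.08% positive and 2.99% negative).

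Fzd3, a receptor of the planar cell polarity branch known for axon guidance, had 7.96, 15.3 and 13.3 CPM in sorted marrow, 13.4, 15.3 and 7.81 CPM in nonsorted marrow and 5.66, 13.0 and 9.75 CPM in BAC depleted libraries. The BAC nondepleted libraries stood apart at 0.470, 0.909 and 1.56 CPM, below all of the other 9. The rise on depletion was log2 3.27 ± 0.49 (adjusted p 0.000663), and the excess of BM nonsorted over BAC nondepleted was log2 3.64 ± 0.50 (adjusted p 0.00105, edgeR's quasi-likelihood test). On sorting the log2 fold change was 0.00 ± 0.43. The sorting effect minus the depletion effect was -3.27 ± 0.65 (adjusted p 0.0172 by the same test), and that call alone was lost without BM sorted replicate 3 (adjusted p 0.0508). Macrophage markers fell on depletion in all 12 genes of the list and on sorting in 11 of 12. They started from summed levels of 12983 to 14697 CPM in BAC nondepleted and 5056 to 5710 CPM in BM nonsorted libraries. The part of these markers in the Fzd3 values was not tested.

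Fzd9, a receptor known in osteoblasts and in neural tissue, had 55.5, 54.8 and 64.5 CPM in the BAC depleted libraries. It had 0.671, 1.71 and 1.22 CPM in BAC nondepleted, 2.05, 0.629 and 1.29 CPM in sorted marrow, and 0.338, 0.477 and 13.9 CPM in nonsorted marrow libraries. The depleted group lay far above the rest and was even within itself, the exception elsewhere being BM nonsorted replicate 3. Fzd9 rose by log2 5.6 ± 1.26 on depletion (adjusted p 0.00671) and was lower in BM sorted than in BAC depleted libraries by -5.47 ± 1.25 (adjusted p 0.00534, edgeR's quasi-likelihood test). The sorting effect minus the depletion effect was -7.51 ± 1.67 (adjusted p 0.0256 by the same test). It became -3.92 without BM nonsorted replicate 3, still called, and lost its call without BM sorted replicate 2 or 3 or any BAC nondepleted library, with adjusted p of at most 0.0807 (edgeR). The DESeq2 Wald test gave no adjusted p for Fzd9.

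Fzd8, a receptor of canonical Wnt signalling, had 47.0, 46.2 and 43.3 CPM in sorted marrow, 28.5, 35.8 and 41.1 in nonsorted marrow, 326, 370 and 243 in BAC depleted and 86.1, 157 and 108 CPM in BAC nondepleted libraries. The groups fell into order without overlap, with both marrow groups lowest and the depleted group highest. The log2 fold changes were 1.42 ± 0.23 on depletion (adjusted p 0.00096), -2.78 ± 0.24 for BM sorted minus BAC depleted (adjusted p 3.52e-05) and -1.73 ± 0.23 for BM nonsorted minus BAC nondepleted (adjusted p 0.000907, edgeR's quasi-likelihood test). All 3 calls were kept in every alternative run.

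Fzd4, which also serves as the receptor of norrin in blood vessels, depended on 1 library for its size. It had 63.4, 30.2 and 31.2 CPM in sorted marrow, 30.7, 16.8 and 15.5 in nonsorted marrow, 72.0, 476 and 42.8 in BAC depleted and 14.1, 13.7 and 15.8 CPM in BAC nondepleted libraries. Each depleted library was above each nondepleted one, and replicate 2 was 6.62-fold above the next. The rise on depletion was log2 3.76 ± 0.83 (adjusted p 0.00591), and it was kept without that library at 1.98 (adjusted p 0.00444, edgeR's quasi-likelihood test). The lower level in BM sorted than in BAC depleted libraries, -2.24 ± 0.77 (adjusted p 0.0361), was lost without it at -0.46 (adjusted p 0.357 by the same test), and also without BM sorted replicate 2 or 3 or BAC nondepleted replicate 2.

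Fzd5, a canonical receptor, had 155, 130 and 117 CPM in sorted marrow, 68.2, 81.7 and 77.3 in nonsorted marrow, 70.2, 264 and 58.6 in BAC depleted and 21.2, 47.9 and 50.1 CPM in BAC nondepleted libraries. Its depleted libraries also all lay above the nondepleted ones, with replicate 2 highest by 3.76-fold. The rise of log2 1.72 ± 0.53 (adjusted p 0.0286) was 0.69 without that library (adjusted p 0.105, edgeR's quasi-likelihood test), and the call was also lost without BAC nondepleted replicate 1 or 2. The sorted marrow libraries were above the nonsorted ones without overlap, but the sorting difference of log2 0.82 ± 0.52 was not called (adjusted p 0.552 by the same test), except where the fit held the 6 marrow libraries alone.

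Per kilobase, Fzd1 had the highest mean of the Frizzled genes in each group, at 32.3 CPM per kb in sorted marrow, 22.7 in nonsorted marrow, 56.9 in BAC depleted and 40.9 in BAC nondepleted libraries. Fzd8 had 52.4 CPM per kb after depletion, where it was above Fzd1 in replicates 2 and 3, so the order of these genes is within the spread between libraries. Before depletion Fzd8, Fzd7 and Fzd2 were not separable, at 19.5, 19.4 and 18.7 CPM per kb, with Fzd8 the highest of them in replicate 2 only. In marrow it had 7.62 CPM per kb after sorting and 5.88 before, behind Fzd5, Fzd7 and Fzd2 in both groups. Fzd1, Fzd2, Fzd6 and Fzd7 were not called in any comparison. Their levels ranged over the 12 libraries from 84.0 to 356 CPM for Fzd1, from 44.1 to 83.9 CPM for Fzd2, from 0.369 to 12.6 CPM for Fzd6 and from 75.1 to 204 CPM for Fzd7.

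**Figure D5:**
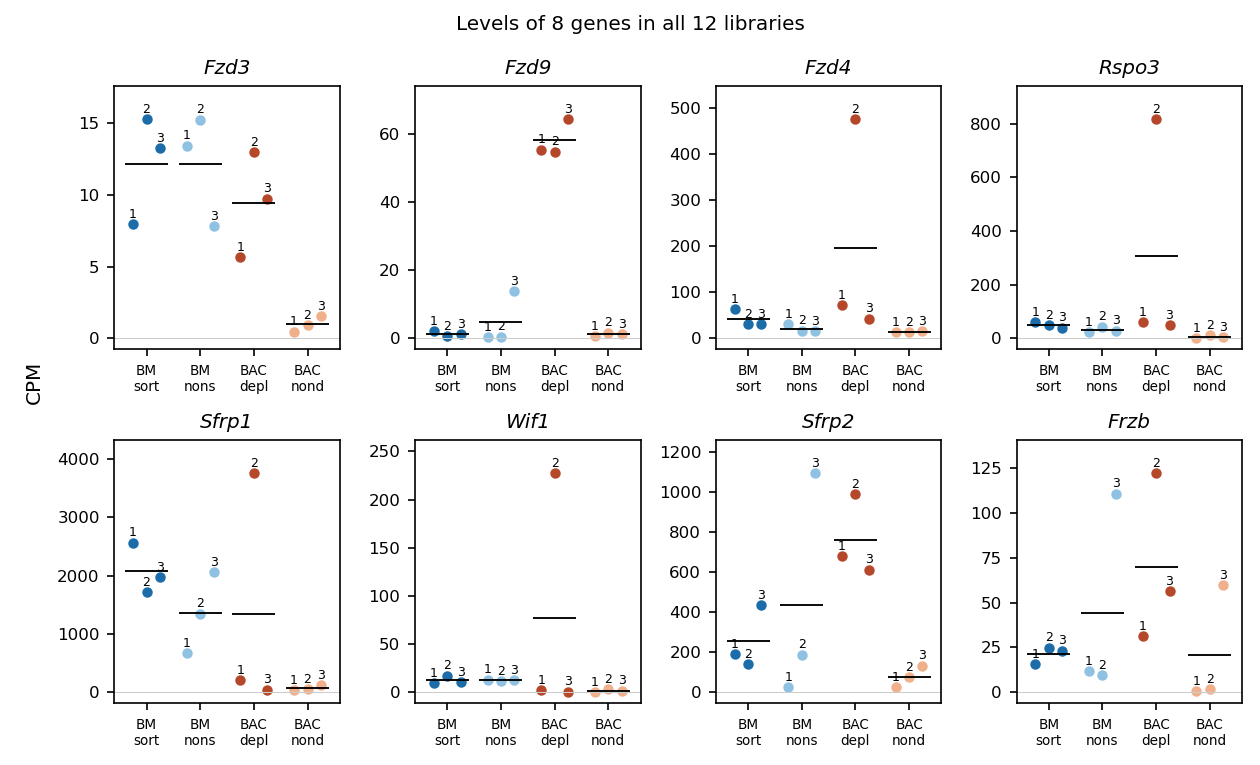
CPM (linear axes that differ between panels) of 8 genes in all 12 libraries, each point 1 library with its replicate number and each line the mean of 3. Fzd3 is low in the BAC nondepleted group and Fzd9 high in the BAC depleted group in all 3 libraries, whereas the BAC depleted means of Fzd4, Rspo3, Sfrp1 and Wif1 are carried by replicate 2.

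Of the LRP co-receptors, Lrp6 was called in 3 comparisons and Lrp5 in none. Lrp6 had 257, 227 and 250 CPM in sorted marrow, 186, 190 and 207 in nonsorted marrow, 837, 638 and 788 in BAC depleted and 444, 342 and 306 CPM in BAC nondepleted libraries. None of the 4 groups overlapped another. It rose on depletion by log2 1.05 ± 0.16 (adjusted p 0.000604) and was lower in marrow by -1.62 ± 0.16 (adjusted p 6.29e-05) between the purified and -0.90 ± 0.16 (adjusted p 0.00277, edgeR's quasi-likelihood test) between the unpurified groups. These calls were kept in every alternative run. Lrp5, whose loss lowers bone mass, had group means of 111 ± 18.1, 95.7 ± 6.76, 133 ± 52.0 and 93.6 ± 33.7 CPM in the same order (SD, n = 3). Its log2 fold change for BM sorted minus BAC depleted was -0.27 ± 0.30 (adjusted p 0.477, edgeR's quasi-likelihood test).

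Among the R-spondins, 3 of 4 genes were tested and Rspo3 alone was called, on depletion. Rspo3 had 59.4, 48.6 and 39.9 CPM in sorted marrow, 22.9, 43.5 and 28.9 in nonsorted marrow, 59.4, 818 and 48.5 in BAC depleted and 0.906, 11 and 5.49 CPM in BAC nondepleted libraries. The nondepleted bone-associated libraries were the lowest of all 12, and BAC depleted replicate 2 was 13.8-fold above the next of its group. The rise on depletion was log2 5.73 ± 1.25 (adjusted p 0.00568) and was still called without that library, at 3.21 (adjusted p 0.00717, edgeR's quasi-likelihood test). It was lost where the fit held the bone-associated libraries alone (adjusted p 0.0510 by the same test). The DESeq2 Wald test gave no adjusted p for it. Rspo2 was the most abundant R-spondin per kilobase in each group, at 85.6 to 130 CPM per kb, though replicate 2 of the depleted group made the Rspo3 mean 99.8 CPM per kb there. Rspo2 ranged from 333 to 767 CPM over the libraries without a call, and Rspo1 did not exceed 0.509 CPM.

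The R-spondin receptors differed from each other in direction. Lgr5, a stem cell marker of the gut and hair follicle, had 20.5, 24.8 and 18.7 CPM in sorted marrow, 12, 23.0 and 43.2 in nonsorted marrow, 35.4, 130 and 240 in BAC depleted and 6.88, 3.16 and 30.8 CPM in BAC nondepleted libraries. The depleted libraries were above all the others of bone, and above those of sorted marrow. It rose on depletion by log2 3.31 ± 0.91 (adjusted p 0.0168) and was lower in BM sorted than in BAC depleted libraries by -2.66 ± 0.88 (adjusted p 0.0299, edgeR's quasi-likelihood test). The former was lost without BAC nondepleted replicate 1 (adjusted p 0.0619, log2 fold change 2.60 to 4.74 with each library left out), and the latter without BAC depleted replicate 3 (-1.96) or any BM sorted library. Lgr4, the broadly expressed receptor of the family, had 60.1, 67.8 and 72.8 CPM in BM sorted and 106, 146 and 80.4 CPM in BAC depleted libraries, without overlap. Its log2 fold change of -0.73 ± 0.24 (adjusted p 0.0274) was lost without BAC depleted replicate 2 (-0.47) or any BM sorted library (edgeR's quasi-likelihood test). In the unpurified groups Lgr4 had 99.7, 65.6 and 64.6 CPM in marrow and 58.6, 70.8 and 82.4 CPM in bone-associated libraries, which overlapped.

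Lgr6, the least abundant of these receptors, was higher in marrow. It had 2.79, 6.59 and 4.78 CPM in sorted marrow, 14.1, 5.25 and 0.498 in nonsorted marrow, 0.636, 0.318 and 0.250 in BAC depleted and 0.369, 0.0727 and 0.114 CPM in BAC nondepleted libraries. The groups did not overlap within either comparison, although BM nonsorted replicate 3 lay close to the bone-associated libraries. Its log2 fold change was 3.52 ± 1.01 between the purified groups (adjusted p 0.0161) and 5.10 ± 1.11 between the others (adjusted p 0.00795, edgeR's quasi-likelihood test). The former was lost without BAC depleted replicate 3 (adjusted p 0.0521), and the latter was 3.90 without BM nonsorted replicate 1, still called.

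Of the Dkk antagonists only Dkk2 and Dkk3 were tested, and Dkk3, a divergent member whose action on LRP receptors is uncertain, was called once. Dkk3 had 657, 652 and 657 CPM in sorted marrow, 536, 628 and 471 in nonsorted marrow, 1461, 704 and 3094 in BAC depleted and 725, 810 and 1153 CPM in BAC nondepleted libraries. The marrow libraries were below all of the bone-associated ones. The log2 fold change of BM sorted minus BAC depleted was -1.42 ± 0.43 (adjusted p 0.0198, edgeR's quasi-likelihood test). It was lost without BAC depleted replicate 3 (-0.73), the library with the highest cartilage markers, whose part was not tested, and without any BM sorted library (adjusted p of up to 0.0698, edgeR). Dkk2 ranged from 1.24 to 35.3 CPM and was not called.

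Of the secreted Frizzled-related proteins and Frzb, Sfrp1 and Sfrp2 had the highest levels per kilobase. Sfrp1 had 477 CPM per kb in sorted marrow, 311 in nonsorted marrow, 306 in BAC depleted and 16.4 in BAC nondepleted libraries. Of 5 genes 4 were tested, and Sfrp1, Sfrp2 and Sfrp4 rose on depletion (75% of those tested, against 17.4% of all genes). Each of these calls was lost without BAC depleted replicate 2. Sfrp1 was also higher in BM nonsorted than in BAC nondepleted libraries (25% of those tested, against 14.9% of all genes). The summed level of the 5 genes was lowest in the BAC nondepleted libraries, at 21.2, 52.9 and 110 CPM per kb, and reached 385, 1393 and 317 CPM per kb after depletion.

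Sfrp1 had 2564, 1722 and 1971 CPM in sorted marrow, 666, 1347 and 2060 in nonsorted marrow, 209, 3757 and 47.6 in BAC depleted and 36.7, 55.8 and 123 CPM in BAC nondepleted libraries. BAC depleted replicate 2 was 18.0-fold above the next of its group, and replicate 3 lay within the range of the nondepleted group. The rise on depletion, log2 4.22 ± 1.33 (adjusted p 0.0304), became 0.83 without that library (adjusted p 0.361, edgeR's quasi-likelihood test). In marrow all 6 libraries were above the BAC nondepleted ones, by log2 4.24 ± 1.33 for the nonsorted group (adjusted p 0.0344 by the same test). That call was lost without any library of these 2 groups or BM sorted replicate 2, at adjusted p of up to 0.112 (edgeR) and log2 values from 3.81 to 4.87.

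Sfrp2 was more even over the depleted libraries, at 681, 991 and 613 CPM, against 24.6, 75.3 and 134 CPM before depletion. In marrow it had 192, 142 and 436 CPM after sorting and 26.1, 189 and 1096 CPM before. The bone-associated groups did not overlap, and the rise was log2 3.29 ± 1.12 (adjusted p 0.0414, edgeR's quasi-likelihood test). It was just past the threshold and was lost without any bone-associated or BM sorted library or BM nonsorted replicate 2, with log2 values from 2.86 to 3.92. Sfrp4, an antagonist whose loss thins cortical bone, had 45.4, 149 and 17.0 CPM after depletion and 5.13, 19.0 and 5.91 CPM before, with overlap. In marrow it had 30.9, 61.9 and 53.3 CPM after sorting and 24.5, 45.5 and 35.4 CPM before. Its rise of log2 2.82 ± 0.77 (adjusted p 0.0169) was lost without BAC depleted replicate 2 (1.63, adjusted p 0.062) and without BAC nondepleted replicate 1 or 3 (edgeR's quasi-likelihood test).

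Wif1, which binds Wnt ligands directly, was set by the same library. It had 9.53, 17.4 and 10.7 CPM in sorted marrow, 13.2, 11.9 and 12.5 in nonsorted marrow, 2.04, 228 and 0.833 in BAC depleted and 0.537, 3.23 and 1.75 CPM in BAC nondepleted libraries. Replicate 2 was 112-fold above the next depleted library, and the other 2 lay within the range of the nondepleted group. The log2 fold change of 5.39 ± 1.75 (adjusted p 0.035) turned to -0.34 without it (adjusted p 0.694, edgeR's quasi-likelihood test). The call was also lost without any BAC nondepleted library, BM sorted replicate 3 or BM nonsorted replicate 2. The DESeq2 Wald test gave no adjusted p for Wif1 on depletion. In marrow the 6 libraries were close together. Frzb, an antagonist known from cartilage, was not called in any comparison. It had 15.9, 25 and 23.2 CPM in sorted marrow, 11.7, 9.38 and 111 in nonsorted marrow, 31.1, 122 and 56.4 in BAC depleted and 0.604, 1.85 and 59.7 CPM in BAC nondepleted libraries, so that 1 library of each unpurified group was far above the rest.

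The feedback inhibitor Axin2, widely read as a marker of canonical signalling, was low throughout and lower in marrow. It had 0.336, 0.509 and 0.429 CPM in sorted marrow, 0.369, 0.223 and 0.0878 in nonsorted marrow, 3.5, 2.69 and 1.71 in BAC depleted and 1.41, 1.38 and 0.724 CPM in BAC nondepleted libraries. Every marrow library was below every bone-associated one. Marrow minus bone-associated cells gave a log2 fold change of -2.62 ± 0.48 (adjusted p 0.00155) between the purified groups and -2.36 ± 0.50 (adjusted p 0.00699) between the others, and both calls were kept in every alternative run. The difference on depletion, 1.16 ± 0.45, was not called (adjusted p 0.0644, edgeR's quasi-likelihood test), although the libraries did not overlap.

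Across roles, 8 genes were called in both comparisons of marrow with bone-associated cells (22.2% of the 36, against 20.9% of all genes called in both with the same direction), and all 8 kept their direction. Lgr6, Wnt4, Wnt9a and Wnt10b were higher in marrow, and Axin2, Fzd8, Lrp6 and Wnt5b were higher in bone-associated cells. These comparisons share no library. With each library left out in turn, the 16 calls were kept except that of Lgr6 between the purified groups, as given above.

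BAC depleted replicate 2 was at least 3-fold above the next library of its group for 9 of the 36 genes (25%), against 2.61% of all genes tested. These were Dkk2, Fzd4, Fzd5, Rspo3, Sfrp1, Sfrp4, Wif1, Wnt2 and Wnt4. Without it, 9 genes were called on depletion in place of 15: 8 of the 15 were kept (Fzd3, Fzd4, Fzd8, Fzd9, Lgr5, Lrp6, Rspo3 and Wnt11) and Dkk3 was added. Of the calls between BM sorted and BAC depleted libraries 11 of 13 were kept without it and 4 were added (Fzd5, Fzd7, Sfrp1 and Wif1). The marker sums in which this library stood apart from its group are given above, with members of the same list that did not share the direction. Their part in these values was not tested. Without BAC depleted replicate 1, the library with Xist counts, 13 of the 15 depletion calls and all 13 of the calls against BM sorted libraries were kept.

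Other genes of the pathway were read from 4 lists. The lists share genes, so their counts are not independent of each other. Tcf7 and Lef1 are in those of the intracellular relay and of target genes. Znrf3, Rnf43 and Notum are in those of secretion and of target genes, and Dkk1 of the target list is also among the genes described above. Their counts stand beside shares of all genes of 17.4% higher and 19.9% lower on depletion, 22.9% and 24.6% between the purified groups, and 14.9% and 16.8% between the unpurified groups. Of 7 genes of Wnt secretion and turnover 5 were tested. On depletion 2 rose, Trabd2b, a metalloprotease that inactivates Wnt ligands (log2 1.32 ± 0.29, adjusted p 0.00571), and Wls, the carrier that brings Wnt proteins to the cell surface (0.73 ± 0.19, adjusted p 0.0137, edgeR's quasi-likelihood test). Both were lower in BM sorted than in BAC depleted libraries, Trabd2b at 35.5 ± 2.04 against 268 ± 89.2 CPM and Wls at 479 ± 64.7 against 698 ± 210 CPM (SD, n = 3). Porcn, the enzyme that attaches the lipid to Wnt proteins, was higher in BM sorted libraries by log2 0.89 ± 0.33 (adjusted p 0.0459, edgeR). Rnf43, a ligase that removes Frizzled receptors, was higher in marrow in both comparisons, but its means did not exceed 0.736 CPM. Between the unpurified groups 1 of the 5 was higher and 1 (Trabd2b, -1.65 ± 0.29) lower in marrow. None of the 5 was called on sorting.

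Of 18 co-receptors and related genes 14 were tested. On depletion 6 rose and 1 fell (50% called, against 37.3% of all genes). Tspan12, a partner of Fzd4, rose by log2 1.68 ± 0.25 (adjusted p 0.000647) and Prickle1, a planar polarity gene, by 1.61 ± 0.37 (adjusted p 0.00708), while Celsr2 fell (edgeR's quasi-likelihood test). Between the purified groups 3 were higher and 3 lower in marrow (42.9% called, against 47.4%), and between the unpurified groups 4 and 2 (42.9%, against 31.7%). Ptk7, a co-receptor of the planar polarity branch, had 419 ± 10.7 CPM in sorted and 320 ± 43.9 CPM in nonsorted marrow, against 89.8 ± 41.3 in BAC depleted and 46.9 ± 24.1 CPM in BAC nondepleted libraries. Its log2 fold changes were 2.22 ± 0.37 (adjusted p 0.00103) and 2.77 ± 0.38 (adjusted p 0.00109, edgeR). Lrp4, which presents sclerostin, was also higher in marrow in both, by 1.04 ± 0.26 and 1.56 ± 0.26. Reck, a co-receptor for Wnt7 ligands, ran the other way at -2.88 ± 0.37 and -2.14 ± 0.36, as did Celsr2, a polarity cadherin, at -2.90 ± 0.37 and -2.38 ± 0.35. Celsr2 was also the 1 gene of this list called on sorting, where it was lower by log2 -1.69 ± 0.37 (adjusted p 0.018, edgeR).

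Of 20 genes of the intracellular relay 19 were tested, and changes were mostly small. On depletion 7 rose and 1, Axin1, fell (-0.41 ± 0.09), which is 42.1% called against 37.3% of all genes. Pygo1, a nuclear partner of beta-catenin, rose by log2 1.44 ± 0.28 (adjusted p 0.00332) and Tcf7, a DNA-binding partner of beta-catenin, by 1.42 ± 0.42 (adjusted p 0.0242, edgeR's quasi-likelihood test). Pygo1 had 10.8 ± 0.532 CPM in sorted and 9.47 ± 1.11 CPM in nonsorted marrow, against 87.0 ± 21.5 in BAC depleted and 32.2 ± 14.5 CPM in BAC nondepleted libraries. Between the purified groups 5 were higher in marrow and 3 lower (42.1%, against 47.4%), and between the unpurified groups 6 and 2 (42.1%, against 31.7%). Dvl3, which relays the signal from Frizzled, was higher in marrow by 0.95 ± 0.13 and 1.28 ± 0.13 (adjusted p 0.000357 and 0.000335, edgeR), and Tnks, which promotes the breakdown of Axin, by 0.84 ± 0.21 and 0.83 ± 0.21. None was called on sorting.

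Of 19 known Wnt target and feedback genes 15 were tested, and they did not share a direction. On depletion 3 rose and 3 fell (40% called, against 37.3% of all genes). Between the purified groups 3 were higher and 7 lower in marrow (66.7%, against 47.4%), and between the unpurified groups 2 and 3 (33.3%, against 31.7%). Nkd1, a feedback inhibitor that binds Dishevelled, rose on depletion by log2 2.66 ± 0.51 (adjusted p 0.00282, edgeR's quasi-likelihood test), from 4.81 ± 2.05 to 30.4 ± 15.0 CPM, and was the 1 gene of the lists whose sorting and depletion effects differed (-2.73 ± 0.70, adjusted p 0.0419, edgeR). Ccn4, a matricellular target also called WISP1, had 313 ± 96.2 and 253 ± 50.9 CPM in sorted and nonsorted marrow, against 32.8 ± 13.6 and 23.2 ± 8.19 CPM in depleted and nondepleted bone-associated libraries. Its log2 fold changes were 3.25 ± 0.41 (adjusted p 0.00022) and 3.45 ± 0.41 (adjusted p 0.000593, edgeR). Id2 and Twist1, regulators of cell differentiation, were lower in marrow: Id2 by log2 -2.57 ± 0.22 and -1.90 ± 0.21, and Twist1 by -1.67 ± 0.22 and -2.16 ± 0.23. Cd44, which macrophages also express, fell on depletion by log2 2.19 (SE 0.30) and Myc by 1.51 (SE 0.49), beside the fall of the macrophage markers, whose part was not tested. On sorting 1 of the 15 was called, Id2, which was lower by log2 -1.40 ± 0.21 (adjusted p 0.00148, edgeR). Axin2 and Nkd1, both feedback inhibitors, were thus lower in BM sorted than in BAC depleted libraries, and Ccn4 and Rnf43 were higher.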

How the data were processed

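RNA of 12 mouse libraries, 3 in each of 4 groups given by the sample titles, was sequenced from a low-input kit, per the labels' protocols. The authors deposited 1 table of unnormalized counts for all genes. Per the submitters' processing notes, the tools on GRCm39 were MultiQC 1.7, Subread 2.0.1 with featureCounts, and STAR 2.7.9a. No source used here gives the annotation release or strand setting, so reads of overlapping or antisense genes cannot be told apart. The 1442 rows named by an Ensembl identifier alone took 0.0130% to 0.0297% of each library and were kept.

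Counts were fitted with edgeR 4.0.16 in R 4.3.3: TMM scaling, filterByExpr, 1 mean per group over all 12 libraries and the quasi-likelihood F test with robust dispersions, adjusted by Benjamini-Hochberg over 15698 genes and called under 0.05. An SE is the absolute log2 fold change over the root of F. Levels are CPM on scaled sizes, and CPM per kb uses exon lengths of a GENCODE annotation on GRCm38. Ratios against 1 to 3 counts carry exact 95% counting intervals, which cover counting error only. The fit was tested on simulated counts with 200 changed genes. Those counts used the fitted spread of each gene and were not built to hold outlying libraries. They therefore say nothing of calls carried by 1 library.

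The genes and lists were chosen with earlier results of these data known. Values in every library are given for the 21 genes called in at least 1 comparison with a group mean of at least 5 CPM. Axin2, Wnt11, Wnt16 and Frzb fall outside that rule and were added after their values were seen, as was the choice of promoters. From each pathway list at most 2 called genes per direction and comparison are named. Alternatives were other scalings, DESeq2 1.42.0, other filters, a replicate block, fits on the compared groups alone and each library left out. No 2 libraries of a group agreed within sampling noise (chi-square per degree of freedom at least 15.2).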

Additional observations from a re-analysis of the deposited data

Results flagged for a closer look

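For 2 genes the effect of sorting in marrow differed from that of depletion in bone-associated cells by a test of the difference itself (edgeR's quasi-likelihood test, Benjamini-Hochberg adjustment). For Fzd3 the log2 difference was -3.27 (adjusted p 0.0172), with 12.2 ± 3.79 CPM in BM sorted, 12.2 ± 3.88 in BM nonsorted, 9.47 ± 3.68 in BAC depleted and 0.980 ± 0.550 CPM in BAC nondepleted libraries (SD, n = 3). For Fzd9 it was -7.51 (adjusted p 0.0256), with 1.32 ± 0.710, 4.92 ± 7.81, 58.3 ± 5.39 and 1.20 ± 0.519 CPM in the same order. The same contrast is the difference between the 2 comparisons of marrow with bone-associated cells.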

How the results depend on the processing

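Of the 42 calls of single genes described above, 23 were kept in every alternative run that gave a value. Runs in which a gene failed the filter or had no adjusted p were not counted. Wnt10a between the unpurified groups is among the 23, though it was not tested with the stricter filter or with the compared groups alone. Also among them is Fzd9 on depletion and between the purified groups, without a value from the DESeq2 Wald test. Over 787 values 96 lost the call and 1 changed sign, Wif1 on depletion without BAC depleted replicate 2 (-0.34, in a range of -0.34 to 6.07 with 1 library left out). The 15 calls on depletion became 8 with no low-count filter and 6 with the compared groups alone, and 6 to 18 with 1 library left out (6 without BAC nondepleted replicate 1, 9 without BAC nondepleted replicate 2 or BAC depleted replicate 2). For these changes the cause was not tested. With 1 library left out, calls numbered 9 to 15 between the purified groups (13 with all), 10 to 17 between the unpurified groups (12 with all) and 0 on sorting, where the compared groups alone gave 1. The 2 calls on the difference of effects became 7 with the DESeq2 Wald test, 1 with no low-count filter and 0 to 4 with 1 library left out (0 without BM sorted replicate 3, 1 without BM sorted replicate 2, and 4 without BAC depleted replicate 1 or 3).

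With the replicate number as a block, calls numbered 0 on sorting, 13 on depletion, 12 between the purified groups, 14 between the unpurified groups and 1 on the difference. No label says whether the numbers pair the samples. Same-numbered libraries correlated at -0.22 to 0.24 in their deviations from the group means, over 0.1 in 3 of 12 pairs. They correlated best with their own number in 5 of 12, and correlations of this size cannot decide the question. By its Xist and Y-linked counts, BAC depleted replicate 1 cannot share an animal with the other libraries numbered 1. With 3 libraries per group and between 0 and a few counts per library for the rarest ligands, differences in those genes were not detectable at this depth.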
